A study of Mus musculus with 70 samples.

Results

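The respiratory chain and the ATP synthase sit in the inner membrane of mitochondria. Complex I (NADH dehydrogenase, subunits named Nduf) and complex II (succinate dehydrogenase, Sdh) pass electrons to coenzyme Q, complex III (cytochrome bc1, Uqcr) passes them to cytochrome c, and complex IV (cytochrome c oxidase, Cox) passes them to oxygen. Complexes I, III and IV pump protons, and the ATP synthase (Atp5) uses the gradient to make ATP. A few subunits are encoded by mitochondrial DNA and all others by nuclear genes, whose transcripts are mostly short because the proteins are small. Neurons depend heavily on this pathway.

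The nuclear genes described here are all those in the expression table whose symbols name a subunit or assembly factor of these complexes: symbols that start with Nduf followed by a, b, c, s or v, with Uqcr, with Cox followed by a digit from 4 to 8, or with Atp5, and Sdha, Sdhb and Sdhc. There were 90 such genes among 14260 in the table. The choice used symbols only, not measured values, and all 90 were tested, since no filter on low values was applied. By role they were 7 core subunits, 30 accessory subunits and 8 assembly factors of complex I, 3 genes of complex II, 7 of complex III, 16 of complex IV, 5 of the catalytic head of the ATP synthase, 12 of its stalk and membrane part, and 2 single-exon copies of subunit genes (Ndufb4c and Cox6c2). Sdhd, Cox4i2, Cox7a1 and Uqcr11 were not analysed here.

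The study asked how feeding limited to part of the night acts in a mouse model of Alzheimer disease. APP23 mice (TG) carry a human APP transgene driven by the Thy1 promoter, which is active in neurons, on a B6 background, and their non-transgenic littermates (NTG) were the controls. Mice had food at all times (ALF) or for 6 h a day, from ZT15 to ZT21 (TRF), where ZT counts hours after lights on. TRF was started at an age of 6 to 9 months, and the hippocampus of one hemibrain was taken at an age of 10 to 13 months, at ZT0, ZT6, ZT12 or ZT18. The groups held 16 NTG ALF, 16 NTG TRF, 19 TG ALF and 18 TG TRF mice. All were singly housed in a light-dark cycle. The labels describe random assignment and a near balance of the sexes, but they give no sample's sex. The 4 times held 25, 11, 23 and 10 mice, so ZT0 and ZT12 carried most of the information on time, and the NTG groups held only 1 or 2 mice each at ZT6 and ZT18.

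The 69 animals gave 70 libraries of 27.9 to 47.1 M counted reads, as estimated from the step between the values of each library. Thy1, whose promoter drives the transgene, ranged from 14727 to 29068 normalized counts in the 32 NTG mice and from 101986 to 171318 in the 37 TG mice, without overlap, which fits the genotype labels. All 12 neuron markers were present at every time, the lowest with a mean of 1327 normalized counts at ZT12. The summed level of 16 choroid plexus markers fell into separate ranges: 12.8 to 15.0 on the log2 scale in 26 mice and 16.6 to 18.3 in 43. The higher range held 8 of 16 NTG ALF, 9 of 16 NTG TRF, 16 of 19 TG ALF and 10 of 18 TG TRF mice.

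The promoters of many of these genes carry binding elements for NRF1, for ETS factors such as GABP, or for YY1, the factors known for driving nuclear respiratory genes. RefSeq promoters of GRCm38, from 250 bases before to 50 after the start site, were matched for 73 of the 90 genes and for 11094 genes of the table. The NRF1 element searched was a palindrome of 10 bases, whose letters stand in capitals in the Atp5g2 and Ndufa11 promoters below. It lay in 7 of the 73 promoters (9.59%), against 2.03% of all promoters. The ETS element CCGGAAG, on either strand, lay in 16 (21.9%), against 16.9%. The YY1 element AAGATGG, on either strand, lay in 11 (15.1%), against 7.04%, and the E-box CACGTG, the element of the circadian clock factors, in 6 (8.22%), against 9.85%. At least 1 of the NRF1, ETS and YY1 elements lay in 42.5% of the promoters of these genes and in 24.04% of all. These are matches of letters within short windows, not measured binding.

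5 promoters are shown, 4 of genes whose levels are described below and Ndufa11, a short transcript with means of 2356 normalized counts at ZT0 and 2625 at ZT12. Ndufs3 (core subunit of complex I) and Sdhb (iron-sulfur subunit of complex II) carry ETS elements close to the start site, Cox6a1 (complex IV) carries an NRF1 and an ETS element, and Atp5g2 (the membrane ring of the ATP synthase) and Ndufa11 (complex I) carry the NRF1 element. Each run holds 280 bases, 5′ to 3′ on the gene's strand, the last 30 of them from the RefSeq start site on. The gene spans given further below begin further upstream for Ndufs3 and Sdhb. Capitals mark the elements found, with CTTCCGG being the ETS element on the other strand. On GRCm38 they lie at chr2:90904692-90904971 (minus strand) for Ndufs3, chr4:140961021-140961300 (plus strand) for Sdhb, chr5:115348929-115349208 (minus strand) for Cox6a1, chr15:102671018-102671297 (minus strand) for Atp5g2 and chr17:56717512-56717791 (plus strand) for Ndufa11.
Ndufs3: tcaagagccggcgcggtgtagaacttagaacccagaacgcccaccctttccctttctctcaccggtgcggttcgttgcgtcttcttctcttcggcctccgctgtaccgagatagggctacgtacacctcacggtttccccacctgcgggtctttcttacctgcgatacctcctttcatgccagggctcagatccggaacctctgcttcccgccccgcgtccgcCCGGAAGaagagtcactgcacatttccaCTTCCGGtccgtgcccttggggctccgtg
Sdhb: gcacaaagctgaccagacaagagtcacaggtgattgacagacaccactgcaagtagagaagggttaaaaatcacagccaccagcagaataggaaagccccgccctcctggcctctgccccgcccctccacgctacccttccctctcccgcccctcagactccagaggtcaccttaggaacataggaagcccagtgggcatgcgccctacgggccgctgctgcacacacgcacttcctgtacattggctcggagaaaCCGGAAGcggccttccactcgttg
Cox6a1: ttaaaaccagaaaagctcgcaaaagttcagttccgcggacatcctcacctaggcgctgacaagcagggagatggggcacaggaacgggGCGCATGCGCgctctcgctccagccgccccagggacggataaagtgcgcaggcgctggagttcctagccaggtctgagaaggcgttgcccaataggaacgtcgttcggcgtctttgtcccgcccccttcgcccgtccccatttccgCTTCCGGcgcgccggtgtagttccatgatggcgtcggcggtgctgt
Atp5g2: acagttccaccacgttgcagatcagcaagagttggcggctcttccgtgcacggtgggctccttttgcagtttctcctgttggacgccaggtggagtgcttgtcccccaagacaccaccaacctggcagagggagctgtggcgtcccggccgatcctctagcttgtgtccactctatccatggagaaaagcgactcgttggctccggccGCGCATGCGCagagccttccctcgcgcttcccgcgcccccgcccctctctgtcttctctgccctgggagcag
Ndufa11: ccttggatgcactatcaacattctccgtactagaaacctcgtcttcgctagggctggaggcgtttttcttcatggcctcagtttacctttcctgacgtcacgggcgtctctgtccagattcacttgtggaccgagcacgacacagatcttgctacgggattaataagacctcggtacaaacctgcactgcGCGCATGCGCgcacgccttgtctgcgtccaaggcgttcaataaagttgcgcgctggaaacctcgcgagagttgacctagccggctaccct

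The 90 genes were mostly abundant. Means over the 69 mice ran from 56.9 normalized counts (Cox7a2) to 43845 (Atp5b), with 71 genes above 1000 and 8 below 200. Levels are compared between genes only per 1000 nt of transcript, since longer transcripts give more reads. On that scale the β subunit of the ATP synthase head, Atp5b, stood highest at 22883 normalized counts per 1000 nt. It was followed by the complex IV subunits Cox4i1 (20207), Cox8a (20183) and Cox6a1 (18492), by Atp5a1, the α subunit of the head (13660), and by Cox6c (12373). The catalytic subunit of complex II, Sdha, stood at 5755, the core proteins of complex III at 4591 (Uqcrc1) and 3836 (Uqcrc2), its Rieske protein Uqcrfs1 at 3080, and the complex I core subunits Ndufv1 and Ndufs1 at 3392 and 2057. Assembly factors of complex I were lower, between 228 (Ndufaf6) and 765 (Ndufaf5).

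Where a subunit has a form made in most tissues and a form known from muscle or testis, the hippocampus held far more of the common form. Cox6a1 exceeded its muscle counterpart Cox6a2 84.4-fold per 1000 nt, Cox8a exceeded the muscle form Cox8b 98.1-fold, and Cox6b1 exceeded the testis form Cox6b2 30.2-fold. Ndufa4, now counted as a complex IV subunit, exceeded its hypoxia-linked relative Ndufa4l2 143-fold. The 3 genes that encode the same c subunit of the ATP synthase ring stood close together, Atp5g3 being 1.49-fold above Atp5g1 and 1.64-fold above Atp5g2. Cox7a2 was low, at 86.4 normalized counts per 1000 nt against 4174 for its relative Cox7a2l. Cox7a2 is not among the genes with near-identical sequence described below. Whether its low value reflects the transcript level or the way reads were counted was not tested.

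Some of these levels are uncertain because reads can be shared. 15 of the 90 genes have near-identical sequence elsewhere (at least 95% identity over at least 50% of the transcript), among them Atp5l with 9 such genes, Uqcrb and Atp5h with 3 each, Atp5g2 with 2 and Ndufs3 with 1 (Gm12251). The 2 single-exon genes copy Ndufb4 and Cox6c, so their low values, means of 77.3 (Ndufb4c) and 72.3 (Cox6c2) normalized counts, may hold reads of the parent genes. Uqcrc2 shares 26.6% of its transcript with exons of Pdzd9 on the other strand, and whether the counting used strand is not given in the sources used here.

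The spread among animals depended on transcript length. The transcripts of these genes had a median length of 772 nt, against 2930 nt for all annotated genes, and 58 of the 90 were under 1000 nt. The median SD of the log2 level over 69 mice was 0.41 for the 39 genes under 700 nt, 0.30 for the 19 from 700 to under 1000 nt, 0.23 for the 16 from 1000 to under 1500 nt and 0.16 for the 16 of 1500 nt or longer. Over all 90 genes it was 0.31, against 0.22 for all genes of the table. The steadiest were the long transcripts of Atp5b, Atp5a1 and Sdha, each with an SD of 0.10. The most variable were Cox8b (2.22), Cox6b2 (0.96) and Atp5k, a small membrane subunit of the ATP synthase (0.85). Across the 90 genes Spearman's rho of SD with length was -0.71, as a description, since all genes come from the same libraries.

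**Figure D1:**
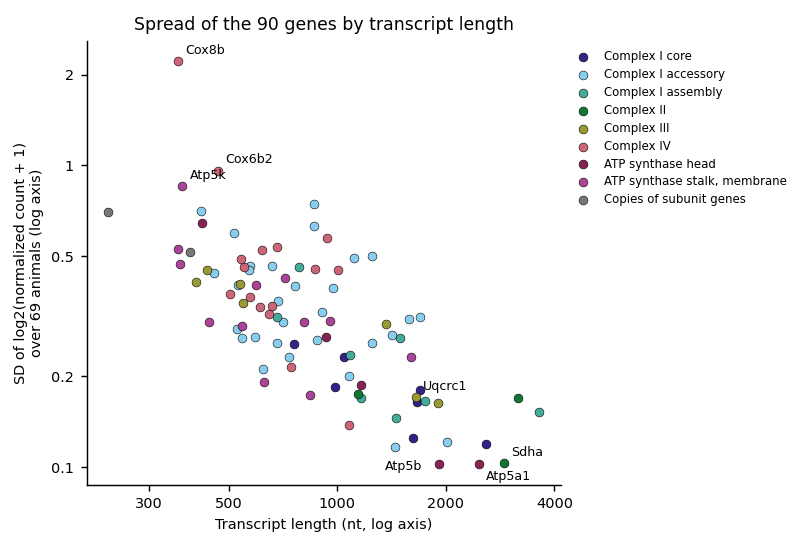
SD of log2(normalized count + 1) over 69 animals (y, log axis) against transcript length in nt (x, log axis) for each of the 90 genes, coloured by role. The shortest class of transcripts has a median SD of 0.41 and the longest 0.16, with Cox8b far above all others at 2.22.

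Much of that spread was shared by short transcripts in general. For each mouse, the mean deviation of the 90 genes from their own means was set beside the median deviation of the other genes in the table with transcripts under 1000 nt. The 10 mice with the lowest level of respiratory chain genes were the 10 with the lowest level of other short transcripts, and 8 of the 10 highest were shared. 9 of the 10 lowest were among the 10 with the highest level of 4291 other genes of 4000 nt or longer. 4 libraries stood apart, all from ALF mice at ZT0: WT_ALF_0_1 and WT_ALF_0_107 (NTG, written WT in the sample titles), TG_ALF_0_16 and TG_ALF_0_5. Their mean deviations were -0.98, -0.999, -0.66 and -0.65, against -0.36 to 0.54 in the other 65 mice. The other short transcripts of these 4 were lower by a median of 0.52 to 0.73. Cox8a, for example, had 2902, 4616, 4111 and 3664 normalized counts in these 4 libraries and at least 6608 in every TRF mouse. The labels state the same RNA integrity value for all samples. The share of counts from the ribosomal RNA gene Rn45s ran from 0.06% (TG_ALF_12_117) to 9.40% (WT_ALF_12_322). In the 4 libraries that stood apart it was 0.27%, 2.50%, 0.21% and 0.10%, in the order named. Because these libraries fall in 1 feeding group and at 1 time, the main counts and medians of the 90 genes are given with all 69 mice, without these 4, and with the short-transcript level as a covariate. Single genes and marker lists are given with all 69 mice unless another setting is named. These settings were chosen after seeing the data. The mean level of the 90 genes and the short-transcript level correlated at r = 0.986. The covariate therefore removes a shift that the 90 genes share with other short transcripts, whatever its source. Medians near 0 with the covariate follow from this and do not test where a shift comes from.

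**Figure D2:**
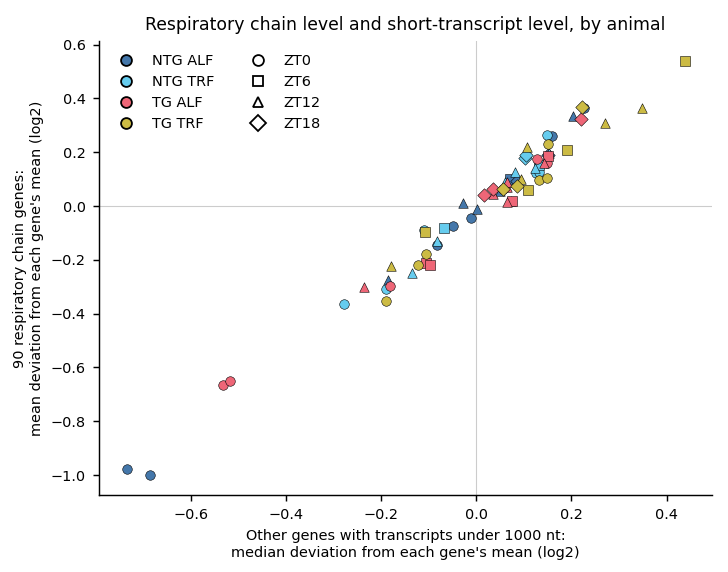
Each point is 1 of 69 animals, with the median log2 deviation of the other genes under 1000 nt on x and the mean log2 deviation of the 90 respiratory chain genes on y; colour gives the group and shape the time of sacrifice. The points lie close to 1 line, and 4 ALF animals at ZT0 lie below -0.6 on y.

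From lights on to lights off, 33 of the 90 genes rose and none fell. Differences were estimated with limma on log2(normalized count + 1), adjusted for group, with p-values adjusted over all 14260 genes and a threshold of 0.05. The 33 were 36.7% of these genes, against 14.4% of all genes called higher and 13.6% called lower. The median difference, ZT12 minus ZT0, was 0.18 on the log2 scale, against 0.003 for all genes, and 86 of 90 differences were positive. Genes that rose came from every complex: 5 of 7 core subunits, 7 of 30 accessory subunits and 2 of 8 assembly factors of complex I, 2 of 3 genes of complex II, 3 of 7 of complex III, 5 of 16 of complex IV, and 9 of 17 of the ATP synthase. Neither single-exon copy passed.

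Without the 4 libraries, 7 of the 90 genes rose (7.78%), against 9.07% of all genes called higher, and the median difference was 0.07. With the short-transcript covariate, 8 rose and 2 fell, against 10.3% of all genes called higher and 10.2% lower, and the median was 0.02. Both shares lie near those of all genes. The same 7 genes rose in all 3 fits: Uqcrc1 and Uqcrc2 of complex III, Ndufs3 of the complex I core, Sdhb of complex II, the complex I assembly factors Ndufaf3 and Ndufaf7, and Atp5a1. The 2 that fell with the covariate were the assembly factor Ndufaf5 and Uqcrh, the hinge protein of complex III. By length, 10 of the 16 genes of 1500 nt or longer rose with 69 mice and 4 of 16 without the 4 libraries, and of the 39 genes under 700 nt, 9 and 0. Outside the respiratory chain, the median difference with 69 mice was 0.15 for genes under 700 nt and -0.06 for 4291 genes of 4000 nt or longer.

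Uqcrc1, a core protein of complex III (chromosome 9, 108936633 to 108949623, plus strand), had the smallest p of the 90. It ranged from 5441 to 8858 normalized counts at ZT0 (median 7027, 7087 ± 879, mean ± SD, n = 25) and from 6758 to 11216 at ZT12 (median 8165, 8160 ± 900, n = 23). The ranges overlap, and the 2 lowest values belong to the NTG libraries that stand apart. The difference was 0.21 ± 0.04 (SE, log2; limma, adjusted p = 0.00021), and over 14 other settings it lay between 0.15 and 0.23 (adjusted p between 2.1e-05 and 0.0035). Its partner Uqcrc2 (chromosome 7, 120635176 to 120659524, plus strand) ranged from 4963 to 9327 at ZT0 (median 6839) and from 6697 to 8910 at ZT12 (median 7442). Its difference was 0.16 ± 0.04 (limma, adjusted p = 0.0026; between 0.0011 and 0.039 over 14 other settings).

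Ndufs3, a core subunit of the arm of complex I that extends into the matrix (chromosome 2, 90894634 to 90904827, minus strand), ranged from 1454 to 2803 normalized counts at ZT0 (median 2292) and from 2062 to 3655 at ZT12 (median 2644). The difference was 0.24 ± 0.05 with 69 mice (limma, adjusted p = 0.00063), 0.16 ± 0.05 without the 4 libraries and 0.12 ± 0.03 with the covariate, and the adjusted p lay between 0.00017 and 0.0098 over 14 other settings. Sdhb (chromosome 4, 140961203 to 140979193, plus strand) had 3537 ± 439 normalized counts at ZT0 and 3963 ± 339 at ZT12 (mean ± SD). Its difference was 0.17 ± 0.04 (limma, adjusted p = 0.0023; between 0.0021 and 0.030 over 14 other settings). Both genes carry ETS elements in the promoters printed above. The ETS element lay in 5 of 25 matched promoters of genes that rose (20%), against 21.9% for all matched respiratory chain genes. It lay in 2 of the 5 matched promoters of the genes that rose in all 3 fits. The NRF1 element lay in 4 of the 25 (16%, against 9.59%). The YY1 element lay in 3 (12%, against 15.1%) and the E-box in 3 (12%, against 8.22%). These counts are small, and a link between promoter elements and the rise was not tested.

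Ndufaf3, an early assembly factor of complex I (chromosome 9, 108565537 to 108567434, minus strand), ranged from 391 to 1073 normalized counts at ZT0 (median 861) and from 789 to 1296 at ZT12 (median 991). The difference was 0.27 ± 0.07 with 69 mice (limma, adjusted p = 0.0025) and 0.16 ± 0.05 without the 4 libraries (0.00085 to 0.024 over 14 other settings). Ndufaf7, a methyltransferase that acts on a complex I core subunit (chromosome 17, 78937136 to 78948052, plus strand), ranged from 908 to 1450 at ZT0 (median 1219) and from 1026 to 1490 at ZT12 (median 1350). Its difference was 0.16 ± 0.04 (limma, adjusted p = 0.0030; between 0.0014 and 0.044 over 14 other settings). Atp5a1 had 32549 ± 2435 at ZT0 and 34936 ± 2150 at ZT12, and the difference was 0.10 ± 0.03 (limma, adjusted p = 0.0044). The differences are modest against the spread: for each of these 7 genes the values at ZT0 and ZT12 overlapped.

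Atp5g1 shows how a short transcript behaved. It had 2579 ± 762 normalized counts at ZT0 and 3188 ± 486 at ZT12 (mean ± SD), a difference of 0.37 ± 0.10 with 69 mice (limma, adjusted p = 0.0045), 0.13 ± 0.04 with the covariate, which also passed, and 0.18 ± 0.07 without the 4 libraries, which did not. Cox8a had 9919 ± 3324 at ZT0 and 11708 ± 2208 at ZT12. Its difference of 0.33 ± 0.12 (limma, adjusted p = 0.039) became 0.09 ± 0.08 without the 4 libraries and 0.04 ± 0.04 with the covariate, neither past the threshold. Cox6a2, the muscle form, had the largest difference of the 33 with 69 mice, 0.39 ± 0.14 (limma, adjusted p = 0.036), and 0.20 ± 0.10 without the 4 libraries, not past the threshold.

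Other main subunits moved little or lost their call. With 69 mice Cox4i1 (0.15 ± 0.06), Cox6a1 (0.29 ± 0.10), Ndufa4 (0.27 ± 0.09), Uqcrfs1 (0.24 ± 0.08) and Ndufs1 (0.10 ± 0.03) rose, and none of the 5 passed without the 4 libraries or with the covariate. The estimate of Ndufs1 hardly moved, at 0.09 ± 0.04 in both of those fits, while that of Uqcrfs1 was 0.09 ± 0.04 without the 4 libraries and 0.07 ± 0.04 with the covariate. With array weights Ndufs1 and Uqcrfs1 kept their call. Cox5b (0.29 ± 0.12; limma, adjusted p = 0.066) did not pass in any of the 3 fits. Atp5b, Sdha, Ndufv1, Ndufaf1 and Cox7a2 were not past the threshold with 69 mice.

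**Figure D3:**
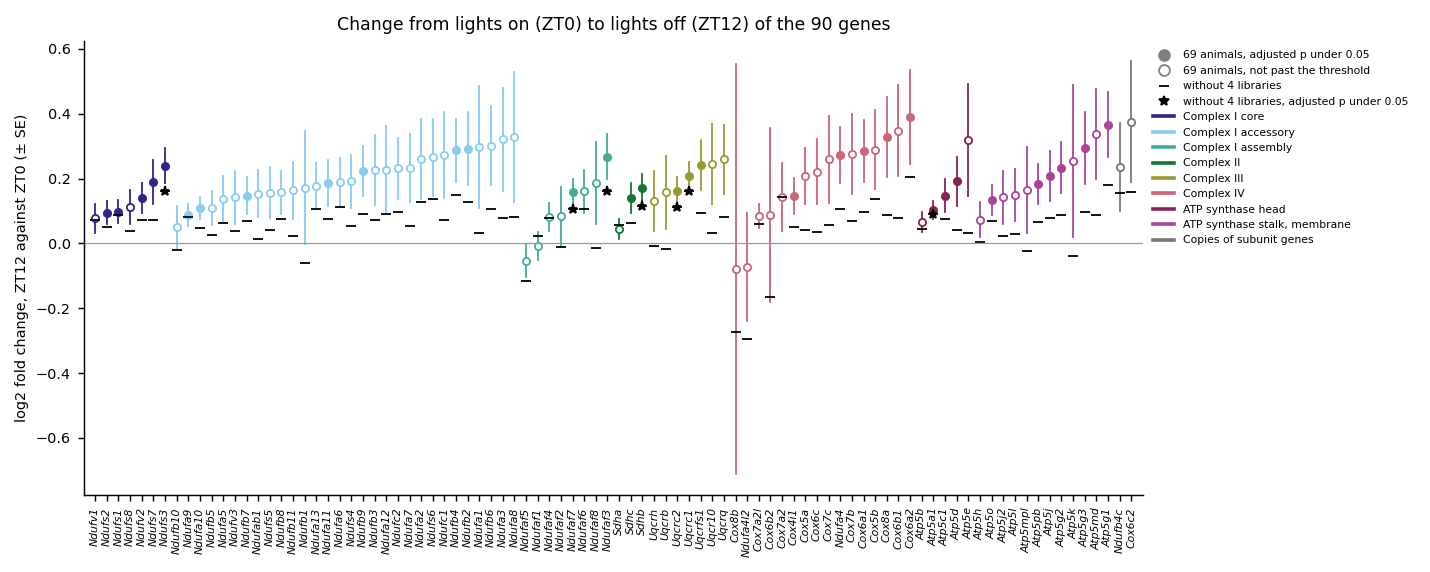
Log2 difference, ZT12 minus ZT0, for each of the 90 genes, ordered within role; circles and bars are the estimate and its SE with 69 animals (filled where the adjusted p is under 0.05) and dashes the estimate without 4 libraries (stars where past the threshold). Of the 33 filled circles, 7 carry a star, and most dashes lie below their circle.

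The number of genes that rose also rested on single mice. Leaving out 1 mouse at a time gave 20 to 49 genes, with 21 without WT_ALF_0_1, 20 without WT_ALF_0_107 and 20 without TG_TRF_12_104. The titles number the animals, and what the leading digit of these numbers stands for is not given in the labels. Within the numbers below 100 (8 mice at ZT0, 7 at ZT12) the median difference of the 90 genes was 0.29, with 85 positive. Within the 100s (11 and 12 mice) it was 0.14, with 83 positive, and within the 200s (4 and 3 mice) it was -0.0009, with 43 positive. Of the 4 libraries that stand apart, 3 are among the 8 mice below 100 at ZT0, 1 is in the 100s and none in the 200s. Without them the medians below 100 and in the 100s were 0.09 (76 positive) and 0.08 (79 positive). Uqcrc1 differed by 0.25, 0.17 and 0.13 in these series, and by 0.18, 0.13 and 0.13 without the 4 libraries. The other genes that rose in all 3 fits differed less than Uqcrc1 in the 200s. There Uqcrc2 and Ndufaf7 each differed by 0.06, Ndufs3 by 0.04, Sdhb by 0.0018, Ndufaf3 by 0.0013 and Atp5a1 by -8.8e-05. Without the 4 libraries Sdhb differed by 0.09, 0.16 and 0.0018 in the same series. The 300s held 2 mice at ZT0 and 1 at ZT12, too few for a value.

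Some markers of other cell types also changed between the same times, where 14.4% of all genes were called higher and 13.6% lower. Of 8 endothelial markers 6 fell and 2 rose (median -0.36; Kdr, a VEGF receptor, fell by 0.86 on the log2 scale), and the summed level ranged from 12.2 to 13.3 on the log2 scale at ZT0 and from 11.9 to 13.0 at ZT12. Of 10 astrocyte markers 3 fell, of 6 markers of oligodendrocyte precursors 3 fell and 1 rose, of 9 microglial markers 2 fell, and of 12 neuronal markers 1 rose and 2 fell (summed level 18.5 to 18.9 at ZT0 and 18.5 to 18.8 at ZT12). Each of the 8 endothelial markers had a mean of at least 320 normalized counts at ZT12. Their part in the difference of the respiratory chain genes was not tested. In bulk tissue, fewer cells of a type and less RNA per cell cannot be told apart.

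Genes that work beside the respiratory chain were counted from lists of genes by function. The shares of all genes called higher were 14.4% with 69 mice and 9.07% without the 4 libraries. Of 19 genes for cytochrome c, coenzyme Q and other electron donors, 8 rose from ZT0 to ZT12 with 69 mice, and 6 rose and 1 fell without the 4 libraries. Those that rose with 69 mice included Coq10b (0.45 ± 0.07; limma, adjusted p = 1.2e-06) and Coq10a (0.27 ± 0.06), which bind coenzyme Q. Of 19 genes of the citrate cycle and pyruvate dehydrogenase, 8 rose with 69 mice and 4 without the 4 libraries. Those that rose with 69 mice included Idh3g, a regulatory subunit of isocitrate dehydrogenase (0.23 ± 0.04), and Mdh2, malate dehydrogenase (0.15 ± 0.03). The median differences of these lists with 69 mice were 0.07 and 0.08.

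Assembly factors outside the 90 genes moved both ways, as did all genes, with 14.4% called higher and 13.6% lower in 69 mice. Of 22 for complex IV, 3 rose and 1 fell, and of 20 for the other complexes, 3 rose and 2 fell with 69 mice, and 0 rose and 2 fell without the 4 libraries. Sdhaf1, which helps mature the iron-sulfur subunit of complex II, rose by 0.30 ± 0.08, and Timmdc1, a membrane-arm assembly factor of complex I, fell by 0.21 on the log2 scale (SE 0.05). The subunits encoded by mitochondrial DNA did not follow: of 12 such transcripts none passed with limma in 69 mice (3 positive, median -0.03), 1 fell without the 4 libraries, and ND4 had the smallest p (-0.11 ± 0.04; adjusted p = 0.053). Poly-A selection captures these transcripts unevenly. Of 14 regulators of mitochondrial biogenesis none rose and 3 fell, among them both parts of the ETS factor GABP, Gabpa (-0.18 ± 0.04) and Gabpb1 (-0.16 ± 0.05). Atp5j shares 22.5% of its transcript with exons of Gabpa on the other strand.

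Other sets of short transcripts give a measure of scale. Of all genes, 14.4% were called higher with 69 mice, 9.07% without the 4 libraries and 10.3% with the covariate. Of 77 mitochondrial ribosomal genes 24 rose with 69 mice, 5 without the 4 libraries and 8 with the covariate. Of 84 cytosolic ribosomal genes 8, 0 and 1 rose. Of 38 proteasome genes 26 rose with 69 mice, 19 without the 4 libraries and 18 with the covariate. The proteasome subunits Psma7 and Psmb2 differed by 0.29 ± 0.05 and 0.31 ± 0.06.

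Over all 4 times, 37 of the 90 genes changed (limma F test over 4 times, 41.1%), against 35.6% of all genes. With the covariate 25 passed, 18 of them among the 37, against 34.7% of all genes. Without the 4 libraries 10 passed, all among the 37, against 29.8% of all genes. Leaving out 1 mouse at a time gave 23 to 53, with 23 without TG_ALF_0_16 and 24 without TG_ALF_0_5. Of the 37, 36 had their lowest adjusted mean at ZT0, and 24 had their highest at ZT18, 7 at ZT12 and 6 at ZT6. 22 genes were shared between the 33 that rose from ZT0 to ZT12 and these 37.

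The 10 genes that also passed without the 4 libraries were Uqcrc1, Ndufa10, Atp5j, Sdhb, Atp5g1, Ndufs3, Ndufb2, Ndufaf7, Ndufaf3 and Ndufb4c. Ndufs3 had the smallest p over 4 times (limma F test, adjusted p = 0.00049), with means of 2223, 2667, 2603 and 2628 normalized counts at ZT0, ZT6, ZT12 and ZT18. Uqcrc1 stood at 7087, 7608, 8160 and 7507, Ndufaf7 at 1196, 1352, 1330 and 1398, and Atp5g1 at 2579, 3285, 3188 and 3549. Uqcrc1 was thus highest at lights off and the other 3 were low mainly at ZT0. All mice at ZT6 and ZT18 came from the 300s of the animal numbers, and nearly all at ZT0 and ZT12 from other series, so time and number series cannot be told apart between these pairs of times.

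**Figure D4:**
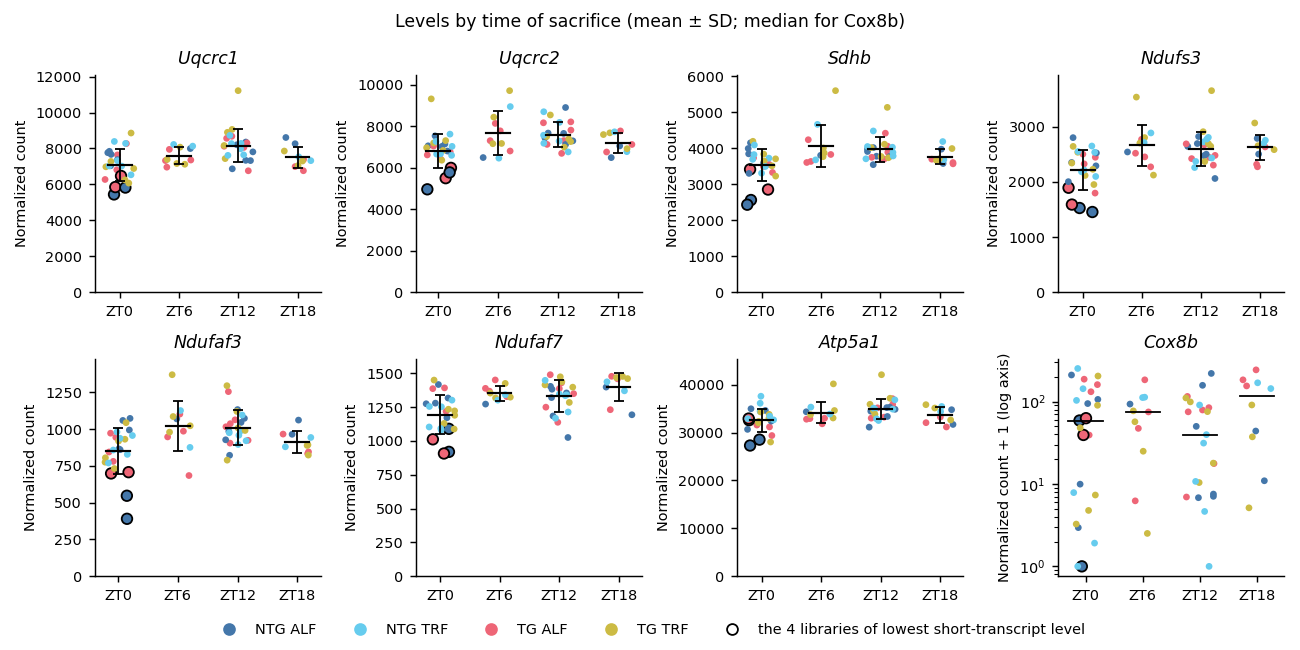
Normalized counts of 8 genes in each of 69 animals at the 4 times of sacrifice; lines are the mean and bars the SD, except Cox8b, drawn as normalized count + 1 on a log axis with its median. Black outlines mark the 4 libraries of lowest short-transcript level, which lie in the lower part of the ZT0 column for Uqcrc1 (5441 at the lowest), Sdhb and Ndufs3.

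Between ZT18 and ZT6, which share a number series, none of the 90 genes passed (limma; 0 at an unadjusted p under 0.05, and 0 with voom weights), against 8.04% of all genes called. The median difference, ZT18 minus ZT6, was 0.09, with 72 positive, and 0.03 with the covariate. The smallest p belonged to Ndufaf1, an assembly factor (0.13 ± 0.07; limma, adjusted p = 0.27; between 0.018 and 0.35 over 14 other settings), followed by Ndufa12 (0.38 ± 0.20), Ndufb6 (0.33 ± 0.18) and Ndufs6 (0.30 ± 0.18), none past the threshold. With the covariate, 4 passed, against 12.7% of all genes: Ndufb6, Ndufa3 and Uqcrh higher at ZT18 and Ndufaf3 lower. All 12 transcripts of mitochondrial DNA had negative differences (median -0.20), and 2 of them, ND1 (-0.24 ± 0.08) and COX3 (-0.75 ± 0.25), fell.

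Within single groups the difference from ZT0 to ZT12 was rarely detectable. In NTG ALF mice (7 and 6) 0 of 90 passed with limma (16 at an unadjusted p under 0.05), against 2.17% of all genes, and the median was 0.24 with all mice, -0.05 without the 2 libraries that stand apart and 0.0037 with the covariate. In NTG TRF mice (6 and 6) 0 passed (0 unadjusted), against 0.596% of all genes, with a median of 0.07, and -0.0055 with the covariate. In TG ALF mice (6 and 6) 0 passed (14 unadjusted), against 2.22%, and the median was 0.22 with all mice, 0.03 without the 2 libraries and 0.04 with the covariate. In TG TRF mice, which hold none of the 4 libraries, 1 gene rose, against 1.48% of all genes called higher, and the median was 0.21, and 0.04 with the covariate. With the covariate 3 genes passed, Uqcrc1 and Ndufs3 higher and Ndufaf5 lower.

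That gene was Uqcrc1. In the 6 TG TRF mice at ZT0 it had 6071, 6255, 6884, 6980, 7278 and 8858 normalized counts, and in the 5 at ZT12 it had 7435, 8165, 8898, 9059 and 11216. The ZT0 mice lay lower except for the highest, which stood above 2 of the ZT12 mice. The difference was 0.34 ± 0.09 (limma, adjusted p = 0.018; between 0.0045 and 0.050 over 7 other settings), and it lost its call when TG_TRF_12_104, TG_TRF_0_321 or TG_TRF_0_323 was left out. Rn45s made up 4.48% of counts in TG_TRF_0_323 and 3.68% in TG_TRF_0_321, and at most 0.39% in the other TG TRF mice at ZT0. Its part in the difference was not tested. In NTG ALF, NTG TRF and TG ALF mice the difference of Uqcrc1 was 0.14, 0.13 and 0.24, none past the threshold. Whether the change from ZT0 to ZT12 differed with feeding was tested directly: 0 of 90 genes passed in TG mice and 0 in NTG mice (limma; 1 and 0 at an unadjusted p under 0.05), and the share of all genes called was 0% in both. The median of this difference in NTG mice was -0.14 with 69 mice, 0.12 without the 4 libraries and -0.0044 with the covariate, and 68 of the 90 genes turned from negative to positive without the 4 libraries. In TG mice it was -0.03, 0.19 and 0.03, and 44 genes turned from negative to positive.

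Feeding gave no call among these genes. In TG mice, 0 of 90 passed for TRF minus ALF (limma; 0 with voom weights), against 0.54% of all genes. At an unadjusted p under 0.05 there were 24 (26.7%), against 17.1% of all genes. The differences still leaned one way: 86 of 90 were positive, with a median of 0.15, against 0.002 for all genes. The median was 0.09 without the 4 libraries and 0.01 with the covariate, and the other genes under 700 nt had a median of 0.14. The genes with the smallest p were Ndufb8 and Ndufb9, accessory subunits of complex I, Cox7a2l and Cox4i1.

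Ndufb8 ranged from 2035 to 4123 normalized counts in TG ALF mice (median 3160, n = 19) and from 2682 to 5570 in TG TRF mice (median 3473, n = 18). The groups overlapped, and the difference was 0.23 ± 0.07 (limma, adjusted p = 0.11; between 0.085 and 0.52 over 16 other settings). Cox7a2l ranged from 3587 to 4751 in TG ALF mice (median 4287) and from 3527 to 6304 in TG TRF mice (median 4628), a difference of 0.13 ± 0.04 (limma, adjusted p = 0.12; between 0.10 and 0.53). Ndufb9 (0.26 ± 0.09) and Cox4i1 (0.19 ± 0.06) had adjusted p of 0.12 and 0.13 with limma, between 0.089 and 0.53 over 16 other settings.

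At single times in TG mice no gene passed either. At ZT0 the median of TRF minus ALF was 0.17 (1 of 90 at an unadjusted p under 0.05 with limma), -0.04 without the 2 libraries and -0.02 with the covariate. At ZT6 it was 0.22 (12 unadjusted, 13.3%, against 8.04% of all genes), and 0.04 with the covariate. At ZT12 it was 0.13 (0 unadjusted), and 0.00036 with the covariate, and at ZT18 0.06 (0 unadjusted), and 0.02 with the covariate. None of the 4 libraries is at these 3 times, so leaving them out changes no difference there. It does change the spread, which is estimated from all mice together. Without them 28 of 90 genes at ZT6 had an unadjusted p under 0.05 with limma (31.1%, against 11.7% of all genes), none past the threshold. At ZT12 there was 1 and at ZT18 0. With the covariate there were 17 at ZT6 (18.9%, against 9.49%). The share of all genes called was 0.00701% at ZT12, and 0% at the other 3 times. At ZT6 (4 mice a group) the smallest p belonged to Ndufb7, a complex I subunit (0.46 ± 0.14; limma, adjusted p = 0.52; between 0.16 and 0.55 over 7 other settings), and Ndufv1 (0.33 ± 0.11), neither past the threshold.

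In NTG mice, 0 of 90 passed for TRF minus ALF (limma; 0 at an unadjusted p under 0.05, 0 with voom weights), against 0.0281% of all genes. The median was 0.07 with 83 positive, and -0.03 with 23 positive without the 4 libraries. With the covariate it was 0.0044. The smallest p belonged to the copy Ndufb4c (0.33 ± 0.17), Atp5a1 (0.07 ± 0.03), Sdhb (0.09 ± 0.05) and Ndufaf6 (0.13 ± 0.08), with adjusted p from 0.69 to 0.81 with limma, and not below 0.56 in 15 or 16 other settings.

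Genotype gave no call. On ALF, 0 of 90 passed for TG minus NTG (limma; 0 at an unadjusted p under 0.05, 0 with voom weights), against 0.189% of all genes, and the median was -0.03 with 25 positive, -0.07 without the 4 libraries and -0.03 with the covariate. On TRF, 0 passed (1 unadjusted, 0 with voom weights), against 0.133% of all genes, and the median was 0.05 with 78 positive, 0.05 without the 4 libraries and -0.02 with the covariate. The interaction of genotype and feeding gave 0 calls among the 90 (0 unadjusted, 0 with voom weights) and 0% of all genes, with a median of 0.08, 0.11 without the 4 libraries and 0.0072 with the covariate. On TRF the smallest p belonged to Ndufaf2 (0.22 ± 0.11; limma, adjusted p = 0.71; between 0.39 and 0.97 over 16 other settings), an assembly factor, and to Ndufa8 (0.44 ± 0.24). On ALF Sdha differed by -0.05 ± 0.04 and Ndufb9 by -0.12 ± 0.09, neither past the threshold; with the covariate Ndufb9 fell, as 1 of 90 genes. The comparisons of feeding and genotype share groups, so their differences are not independent of each other.

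Levels in the 4 groups lay close together for Atp5b and Sdha, which are among the steadiest of these genes. Atp5b had 43549 ± 3584 normalized counts in NTG ALF, 44438 ± 2058 in NTG TRF, 43028 ± 2521 in TG ALF and 44442 ± 3840 in TG TRF mice (mean ± SD). Sdha had 16836 ± 991, 16645 ± 1328, 16207 ± 1169 and 17104 ± 1173 in the same order. Group means thus differed by less than 1 SD of the animals for Atp5b and Sdha. Group means of Cox4i1 and Cox6a1 lay further apart relative to their level, with SDs that were mostly wider as well. Cox4i1 had 14658 ± 2439, 15444 ± 1035, 14115 ± 1830 and 16052 ± 2415 in the same order. Cox6a1 had 10445 ± 2681, 10853 ± 1363, 9590 ± 1987 and 11422 ± 2385.

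**Figure D5:**
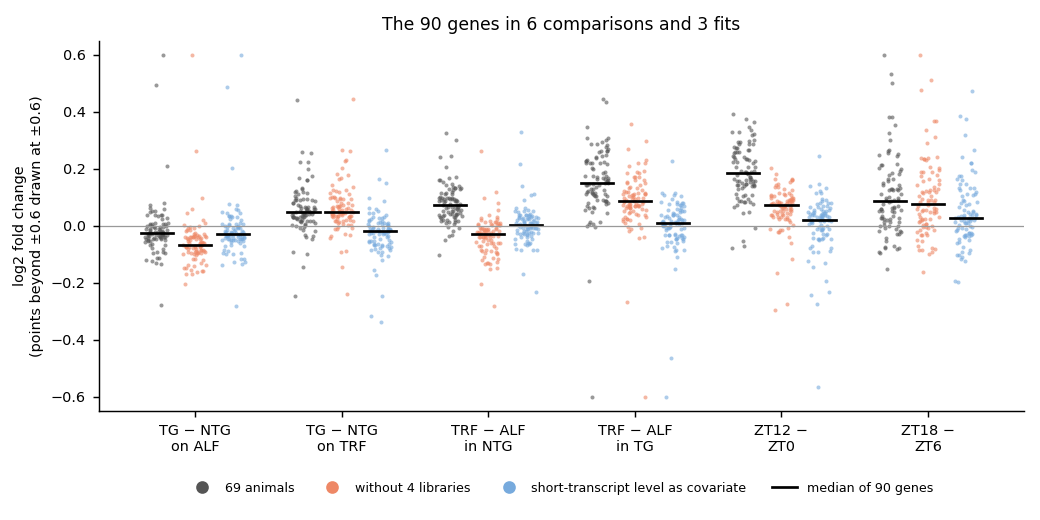
Log2 differences of the 90 genes in 6 comparisons, each with 69 animals, without 4 libraries, and with the short-transcript level as covariate; bars are medians, and points beyond 0.6 in either direction are drawn at 0.6. The median for ZT12 minus ZT0 goes from 0.18 to 0.07 and 0.02 across the 3 fits, and for TRF minus ALF in TG mice from 0.15 to 0.09 and 0.01.

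2 of the minor complex IV forms followed the choroid plexus markers. Cox8b (chromosome 7, 140898945 to 140900446, minus strand) ranged from 0 to 43.0 normalized counts (median 6.02) in the 26 mice with a low summed choroid plexus level and from 36.4 to 252 (median 98.4) in the 43 with a high one. The ranges met only at their edges. Cox6b2 ranged from 4.98 to 87.1 (median 57.2) and from 38.0 to 226 (median 141). Neither the other muscle form nor the common form split this way: Cox6a2 had medians of 154 and 148 and Cox8a of 11731 and 11831 in the same mice. The choroid plexus, which makes cerebrospinal fluid, lies against the hippocampus.

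Cox8b and Cox6b2 had the smallest p of the 90 for TG minus NTG on ALF, where more TG than NTG mice had a high choroid plexus level. Cox8b differed by 1.22 ± 0.75 (limma, adjusted p = 0.83) and by -0.17 ± 0.31 with the choroid plexus level as a covariate. Cox6b2 differed by 0.49 ± 0.32 (limma, adjusted p = 0.87) and by -0.02 ± 0.21 with that covariate. The 16 choroid plexus markers had a median difference of 1.71 in the same comparison, all 16 positive. For TRF minus ALF in TG mice Cox8b differed by -1.34 ± 0.72 and the 16 markers by a median of -1.41, all negative. None of these differences passed the threshold.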

How the data were processed

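RNA of mouse hippocampus was measured by poly-A RNA-seq in 70 libraries of 69 mice. Reads were trimmed with Trimmomatic on Galaxy, per the labels' protocols, and HISAT2, featureCounts, DESeq2 and GRCm38 are named in the submitters' processing notes, without versions or settings. The authors deposited normalized counts, a signal that is no longer raw: every value is a whole multiple of 1 step per library (tolerance 0.01), and the step gave the depth of 27.9 to 47.1 M reads. Count models were not the main test, although dividing by the step would give back whole counts. Libraries 232 and 232R were averaged as 1 animal, and the labels do not state that they are repeats.

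The values were analysed as log2(value + 1) with limma 3.58.1 in R 4.3.3 (trend and robust options), with group and time as terms, and within cells of group and time. P-values were adjusted by Benjamini-Hochberg over 14260 genes, with a threshold of 0.05. The labels do not say whether the animals of a group are otherwise independent, so p-values measure the spread between these mice. On simulated data of 14260 genes the ZT12 to ZT0 test recovered 47.5% of 59 genes changed by 0.25 on the log2 scale. It recovered 91.7% of 84 genes at 0.5 and 100% of 57 at 1. The respiratory chain genes vary more between mice, with a median SD of 0.31 against 0.22 for all genes, and share much of that spread. Recovery was not tested for them as a set, so these percentages do not give the power for them.

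The genes, lists and tests were chosen with earlier results of these data known. Named genes were, for each comparison, up to 6 called in each direction by smallest p, or the 4 of smallest unadjusted p where none was called, together with a set of main subunits, paralogous pairs, the most and least variable genes, and the 2 genes of smallest p in each related list. Alternatives were other scalings, a pseudocount of 10, a mean of at least 100, other weights, covariates, and leaving out animals. Promoters came from RefSeq on GRCm38.p6.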

Additional observations from a re-analysis of the deposited data

Results flagged for a closer look

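Within the 10 groups of 4 to 7 mice that share genotype, feeding and time, 8 of 130 tests found 1 mouse far from the others, where chance gives about 1 in 20. Each value is the gap to the nearest mouse as a share of the whole range. TG_ALF_12_109 (TG, ALF, ZT12, as the sample titles give group, time and animal) was lowest in the mean level of the 90 genes (0.685) and in the short-transcript level (0.716). TG_ALF_12_19 was lowest for Uqcrc1 (0.704). TG_TRF_6_307 was highest for Sdhb (0.843). Uqcrc2 was highest in WT_ALF_12_322 (WT stands for NTG) (0.666) and in TG_TRF_0_323 (0.637). TG_TRF_0_321 was lowest for Atp5a1 (0.662), and WT_TRF_0_8 was lowest for Cox6a2 (0.813).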

How the results depend on the processing

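Over the alternatives run, 195 counts of genes stayed within 1.5 times the value with 69 mice and 20 did not. The 195 include counts of 0 that stayed 0. Of the 18 main counts, the only ones above 0 were ZT12 minus ZT0 (33), the F test (37) and ZT12 minus ZT0 in TG TRF mice (1). The 195 are therefore no measure of how steady the calls were. The number of the 90 genes called from ZT0 to ZT12, 33 with 69 mice, was 11 with array weights, 10 with the short-transcript covariate, 7 without the 4 libraries and 9 with both changes. The F test over 4 times, with 37, gave 10 without the 4 libraries. ZT18 minus ZT6, with 0, gave 2 with array weights, 4 with the short-transcript covariate and 5 with both changes. ZT12 minus ZT0 in NTG ALF mice, with 0, gave 1 with the number series as covariate. TG minus NTG on ALF, with 0, gave 1 with the short-transcript covariate and 1 with both changes. ZT12 minus ZT0 in TG TRF mice, with 1, gave 3 with the covariate, 2 without the 4 libraries and 3 with both. Leaving out 1 mouse at a time gave 20 to 49 genes for ZT12 minus ZT0, 23 to 53 for the F test, 0 to 1 in NTG ALF (1 without WT_ALF_0_136), 0 to 1 in TG ALF (1 without TG_ALF_0_127) and 0 to 2 in TG TRF (2 without TG_TRF_12_220). For TG minus NTG on ALF with the choroid plexus covariate, Cox8b turned to -0.17 and Cox6b2 to -0.016, and for feeding by time in NTG mice Uqcrfs1 turned to 0.061 without the 4 libraries, as 1 of 68 genes that turned from negative to positive there. The cause was not tested. No paired analysis was possible because each animal number occurs in 1 group only. Small differences in the within-group comparisons may have been missed at these group sizes.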
